A study of Mus musculus with 16 samples.

Results

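Hmox1, Blvrb, Slc48a1, Slc40a1, Slc11a1, Fth1, Ftl1 and Tfrc carry out the handling of iron and haem in macrophages. These 8 genes, of 24421 in the count table, were taken by name for that function, with earlier results of these data known. All 8 passed the filter on low counts. Their transcripts were compared in CD11b+ cells that had been in a tumour for different lengths of time. Over both times joined, ferritin (Fth1 and Ftl1), the phagosomal iron transporter Slc11a1, Hmox1 and the iron exporter Slc40a1 were higher in the cells that had stayed. By single time, Slc11a1 passed the test at 24h and 72h, Fth1 and Slc40a1 at 24h only, Ftl1 at 72h only and Hmox1 at neither. The transferrin receptor Tfrc was lower at 72h. All these calls were lost when the share of counts on the ribosomal RNA precursor entered the fit as a covariate.

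Subcutaneous MC38-Ova tumours, a mouse colorectal cancer line that carries ovalbumin, were grown in female C57BL/6 mice transgenic for Kaede, a protein that violet light turns from green to red. The tumour was exposed to violet light and harvested 24h or 72h later, with no drug treatment in any group. By the study's protocol all tumours were lit on the same day after injection. Tumours at 72h were thus also older than those at 24h, and came from different mice. Kaede-red cells were in the tumour when it was lit, and Kaede-green cells came in afterwards. The sort kept live Kaede+ cells positive for CD45 and CD11b and negative for TER119 and NK1.1. The gate thus took CD11b+ myeloid cells of every kind and removed cells that carry the erythroid marker TER119. The 4 groups were Kaede-green 24h, Kaede-red 24h, Kaede-green 72h and Kaede-red 72h, with 4 libraries each. The sample titles and library names give no batch. The study describes the tumours as coming from independent mice, but nothing in the labels ties a Kaede-green library to the Kaede-red library of the same tumour. A Kaede-green cell at 72h may have been in the tumour for any time up to 72h, so each colour at each time is a mixture of residence times.

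Macrophages take up dying red blood cells and haemoglobin, move haem out of the digestive compartment and split it with haem oxygenase, which releases iron. The iron is then stored in ferritin, used by the cell or sent out through ferroportin, the only known cellular iron exporter. Cells in need of iron take it up from transferrin through the transferrin receptor. Iron also acts on some of these messages directly, through iron-responsive elements, short hairpins that bind iron regulatory proteins when iron is low. Such a hairpin in a 5′ UTR blocks translation, and hairpins in the 3′ UTR of the transferrin receptor message protect it from decay. Ferritin protein is therefore set largely at translation, which counts of RNA do not show.

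The hairpins are shown because they mark which of the 8 transcripts are of this kind. They were searched for in the UTRs of the principal GENCODE M21 transcripts (GRCm38, the assembly of the mm10 genome used for alignment). The pattern was an unpaired C, 5 bases, the loop CAGTGN and 5 bases that pair with the first 5, with G-T pairs allowed. It was found once each in the 5′ UTR of Slc40a1 (chr1:45925465-45925493, minus strand), Ftl1 (chr7:45459779-45459807, minus strand) and Fth1 (chr19:9982732-9982760, plus strand). The 3′ UTR of Tfrc held 4 matches (plus strand), at chr16:32631219-32631247, chr16:32631598-32631626, chr16:32631663-32631691 and chr16:32631710-32631738. The same pattern occurred in 0.106% of 19777 5′ UTRs and 0.48% of 21660 3′ UTRs, with no match in the UTRs of Hmox1, Blvrb, Slc48a1 or Slc11a1. Each is written 5′ to 3′ on the strand of the gene, with the loop in capitals.
Slc40a1, 5′ UTR: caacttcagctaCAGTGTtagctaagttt
Ftl1, 5′ UTR: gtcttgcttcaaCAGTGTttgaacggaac
Fth1, 5′ UTR: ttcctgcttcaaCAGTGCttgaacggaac
Tfrc, 3′ UTR, match 1: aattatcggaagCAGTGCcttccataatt
Tfrc, 3′ UTR, match 2: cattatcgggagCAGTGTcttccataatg
Tfrc, 3′ UTR, match 3: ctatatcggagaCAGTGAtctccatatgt
Tfrc, 3′ UTR, match 4: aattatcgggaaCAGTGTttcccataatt

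Libraries held 3216858 to 15423085 counts, most of them on Rn45s, the precursor of ribosomal RNA, at 79.0 to 93.4% of counts in Kaede-green and 55.8 to 84.9% in Kaede-red libraries. Counts outside Rn45s were 468092 to 912689 in Kaede-green and 758192 to 5472477 in Kaede-red libraries, so levels of the scarcer transcripts are less certain in Kaede-green cells. Levels are given as CPM, counts scaled to a common library size of 1000000 with TMM factors. With counts outside Rn45s as the library size, the median of all genes moved to 0.81 on the log2 scale in favour of Kaede-red, against 0.06 after TMM scaling. The call split over all genes then went from 969 higher and 990 lower to 5427 higher and 234 lower. Macrophage markers were high throughout, with a summed level of 484 to 1985 CPM over 6 genes. Of these 6, 4 (Adgre1, Csf1r, Cd68 and Mertk) were higher and 1 (Lyz2) was lower in Kaede-red over both times. The summed macrophage level was 759 to 1985 CPM in Kaede-green 24h, 484 to 843 CPM in Kaede-red 24h, 918 to 1336 CPM in Kaede-green 72h and 823 to 1145 CPM in Kaede-red 72h. In bulk cells, fewer cells of a type and less RNA per cell cannot be told apart.

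Over both times, 5 of the 8 transcripts (Fth1, Ftl1, Slc11a1, Hmox1 and Slc40a1) were higher and 1 (Tfrc, at -0.69, but 0.04 with counts outside Rn45s as the library size) was lower in Kaede-red than in Kaede-green cells (edgeR's quasi-likelihood test, Benjamini-Hochberg adjusted p under 0.05). Of all 9642 genes tested, 20.3% were called, 10.05% higher and 10.3% lower. The median log2 difference was 0.66 over the 8 transcripts and 0.06 over all genes. As the 8 were chosen with earlier results of these data known, these values are no independent test of the list. The 3 transcripts with a hairpin in the 5′ UTR (Fth1, Ftl1 and Slc40a1) were among the 5, along with Slc11a1 and Hmox1, which had no match, and Tfrc carries its hairpins in the 3′ UTR. At 24h, 3 of 8 were higher and 0 lower, beside 7.50% of all genes called, 3.22% higher and 4.28% lower. At 72h, 2 were higher and 1 was lower, beside 16.8% of all genes called, 8.06% higher and 8.76% lower. All 6 calls over both times, and those at 24h and at 72h, were lost when the Rn45s share of each library, which itself differed between the colours, entered the fit as a covariate, and calls over all genes and both times then went from 1959 to 156. With the covariate the Tfrc difference over both times was -0.07, that of Fth1 0.43, Ftl1 0.38, Slc11a1 0.44, Slc40a1 1.06 and Hmox1 0.53, so Tfrc was close to 0 and the others kept a positive value that missed the test.

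**Figure D1:**
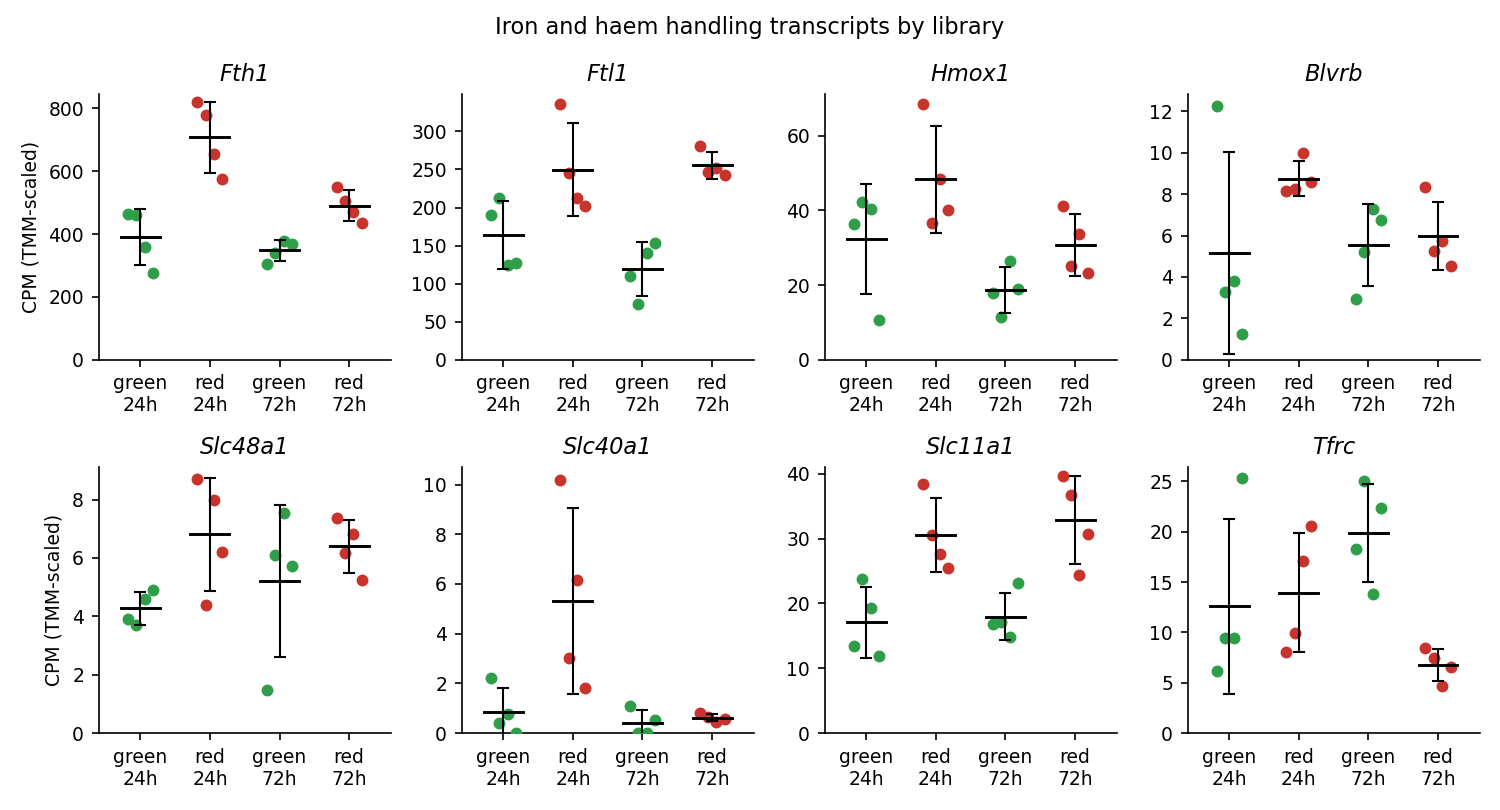
CPM (vertical axis, from 0, TMM-scaled) of the 8 transcripts in each of the 16 libraries, by group. Points are libraries in the order of their replicate number, horizontal lines are means and bars are SD (n = 4). The 4 Kaede-red points of Fth1 and Slc11a1 lie above the 4 Kaede-green points at each time, Ftl1 and Tfrc separate at 72h, and Slc40a1 stands high in Kaede-red 24h.

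Fth1 and Ftl1 encode the heavy and light chains of ferritin. The heavy chain oxidises iron as it enters the ferritin shell and the light chain helps to form the iron core. Fth1 (chr19:9980598-9985098) stood at 465, 459, 358 and 277 CPM in Kaede-green 24h and at 820.3, 780.0, 655 and 576 CPM in Kaede-red 24h. At 72h it was 306, 340.1, 378 and 369.6 CPM in Kaede-green and 550.4, 505, 469.9 and 435 CPM in Kaede-red. The colours did not overlap at either time, as in 2 of the 8 transcripts (Fth1 and Slc11a1) at 24h and 3 of 8 (with Ftl1) at 72h, beside 7.09% and 13.05% of all genes wholly above in Kaede-red. Kaede-red 72h also lay wholly below Kaede-red 24h. Fth1 was 1.60-fold higher in Kaede-red over both times (log2 difference 0.68, SE 0.15, adjusted p = 0.00119). The difference was 0.86 (SE 0.21, adjusted p = 0.00911) at 24h and 0.49 (SE 0.21, adjusted p = 0.110) at 72h, so it passed the test at 24h and missed it at 72h.

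Ftl1 (chr7:45457944-45459884) stood at 191, 213, 125 and 128 CPM in Kaede-green 24h and at 337, 246, 213 and 202 CPM in Kaede-red 24h. Its 72h levels were 109.7, 73.3, 140.1 and 153 CPM in Kaede-green and 281, 247, 252 and 242 CPM in Kaede-red. The light chain thus overlapped between the colours at 24h and separated fully at 72h, where every Kaede-red library was above every Kaede-green one. It was 1.81-fold higher in Kaede-red over both times (log2 difference 0.85, SE 0.16, adjusted p = 0.000205). At 72h the difference was 1.10 (SE 0.23, adjusted p = 0.00089) and at 24h it was 0.61 (SE 0.23, adjusted p = 0.107). Per kilobase of transcript, Fth1 exceeded Ftl1 in each group, for example at 528 ± 52.9 against 264 ± 18.2 CPM per kb in Kaede-red 72h and at 762 ± 121 against 258 ± 63.1 CPM per kb in Kaede-red 24h (mean ± SD, n = 4). Both genes have processed copies in the mouse genome that can take or lose reads, and Ftl1 overlaps an annotated miRNA and an antisense gene, so their absolute levels are uncertain.

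Within a library the balance of the 2 ferritin chains does not depend on scaling. The log2 ratio of Fth1 to Ftl1 counts was 1.28, 1.11, 1.52 and 1.12 in Kaede-green 24h and 1.28, 1.67, 1.62 and 1.51 in Kaede-red 24h. The 72h values were 1.48, 2.21, 1.43 and 1.27 in Kaede-green and 0.97, 1.03, 0.90 and 0.85 in Kaede-red. Kaede-red 72h cells therefore had less heavy chain transcript per light chain transcript than every library of the other groups. Between the colours the ratio differed by 0.26 at 24h (two-sided exact permutation p = 0.143) and by -0.66 at 72h (exact p = 0.0286, the smallest that 4 against 4 libraries allow). Over both times the difference was -0.20 (exact p = 0.298, adjusted over the 3 ratios 0.446). The change in the difference between the times was -0.93 (exact permutation p = 0.00204 over 4900 relabellings, adjusted over the 3 ratios 0.00612), a test added after the values had been seen. In edgeR's quasi-likelihood test, which compares each chain on its own, the interaction of colour and time was -0.37 (SE 0.30, adjusted p = 0.597) for Fth1 and 0.49 (SE 0.32, adjusted p = 0.485) for Ftl1.

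Hmox1, haem oxygenase, opens the haem ring and releases iron, and Blvrb encodes biliverdin reductase B. Hmox1 (chr8:75093621-75100589) stood at 36.2, 42.2, 40.3 and 10.6 CPM in Kaede-green 24h and at 68.4, 36.6, 48.3 and 40.0 CPM in Kaede-red 24h. Levels at 72h were 17.9, 11.3, 26.5 and 19.0 CPM in Kaede-green and 41.1, 25.04, 33.7 and 23.2 CPM in Kaede-red. The colours overlapped at both times, and the lowest library of all was Kaede-green 24h replicate 4. Hmox1 was 1.56-fold higher in Kaede-red over both times (log2 difference 0.64, SE 0.21, adjusted p = 0.0243), with differences of 0.58 (adjusted p = 0.253) at 24h and 0.71 (adjusted p = 0.0955) at 72h. The call over both times was lost without Kaede-red 24h replicate 1 (0.54, adjusted p = 0.0713), without Kaede-green 72h replicate 2 (0.53, adjusted p = 0.0765) or without Kaede-red 72h replicate 1 (0.55, adjusted p = 0.0700).

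Blvrb (chr7:27447978-27466144) was scarce, at 3 to 30 counts in the Kaede-green libraries. It stood at 12.3, 3.28, 3.82 and 1.23 CPM in Kaede-green 24h and at 8.17, 8.27, 9.98 and 8.59 CPM in Kaede-red 24h. At 72h it ranged from 2.92 to 7.30 CPM in Kaede-green and from 4.55 to 8.34 CPM in Kaede-red. The 1 high Kaede-green 24h library, replicate 1, lay above all Kaede-red 24h libraries, while the other 3 lay below them. The log2 difference over both times was 0.47 (SE 0.26, adjusted p = 0.209), and 0.82 (adjusted p = 0.0148) without that library. At 24h it was 0.87 (SE 0.38, adjusted p = 0.181), and 1.58 (adjusted p = 0.00937) without it. The log2 ratio of Hmox1 to Blvrb averaged 2.86 ± 0.92 in Kaede-green 24h, 2.42 ± 0.43 in Kaede-red 24h, 1.74 ± 0.62 in Kaede-green 72h and 2.36 ± 0.13 in Kaede-red 72h (mean ± SD, n = 4). It differed by 0.09 between the colours over both times (exact permutation p = 0.778).

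Slc48a1 carries haem out of the phagolysosome into the cytosol. It stood at 3.90, 3.69, 4.59 and 4.91 CPM in Kaede-green 24h and at 8.70, 4.38, 7.98 and 6.20 CPM in Kaede-red 24h. By 72h it stood at 1.46, 6.11, 7.54 and 5.72 CPM in Kaede-green and 7.36, 6.18, 6.81 and 5.24 CPM in Kaede-red. The groups overlapped, and no comparison of Slc48a1 passed the test. Its log2 difference was 0.45 (SE 0.23, adjusted p = 0.177) over both times, 0.66 (SE 0.35, adjusted p = 0.282) at 24h and 0.25 (SE 0.31, adjusted p = 0.655) at 72h. The gene (chr15:97778520-97792692) overlaps Hdac7 on the other strand, and the strand setting of the read counting is not given in the sources used here, so reads of the pair may be mixed.

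Slc11a1, also known as Nramp1, pumps iron and other metals out of the phagosome, and C57BL/6 mice carry an allele with impaired function. Its difference between the colours was of like size at 24h and 72h. Slc11a1 (chr1:74375195-74386062) stood at 13.4, 23.8, 19.4 and 11.9 CPM in Kaede-green 24h and at 38.5, 30.5, 27.6 and 25.5 CPM in Kaede-red 24h. At 72h it was 16.8, 17.1, 14.8 and 23.2 CPM in Kaede-green and 39.6, 36.8, 24.4 and 30.6 CPM in Kaede-red. All 8 Kaede-red libraries lay above all 8 Kaede-green libraries, and Slc11a1 was the only one of the 8 transcripts of which this held. Of all genes tested, 1.19% lay wholly above in Kaede-red when both times were joined. Slc11a1 was 1.80-fold higher in Kaede-red over both times (log2 difference 0.85, SE 0.16, adjusted p = 0.000206). The difference was 0.82 (SE 0.23, adjusted p = 0.0242) at 24h and 0.87 (SE 0.22, adjusted p = 0.00566) at 72h. The call at 24h was lost without Kaede-green 24h replicate 1 (0.73, adjusted p = 0.0857) or 4 (0.67, adjusted p = 0.0819), and without Kaede-red 24h replicate 1 (0.69, adjusted p = 0.101) or 2 (0.83, adjusted p = 0.0521). Between 24h and 72h the levels differed by 0.06 (SE 0.24, adjusted p = 0.970) in Kaede-green and by 0.11 (SE 0.21, adjusted p = 0.820) in Kaede-red.

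Slc40a1 encodes ferroportin and had the widest range of the 8 on the log scale. It (chr1:45908068-45926523) had 4, 1, 3 and 0 counts in Kaede-green 24h, and 3, 0, 0 and 2 counts in Kaede-green 72h. In Kaede-red it had 116, 25, 34 and 28 counts at 24h and 21, 26, 3 and 27 counts at 72h. On the CPM scale Kaede-red 24h stood at 10.2, 3.04, 6.17 and 1.81, and Kaede-red 72h at 0.82, 0.66, 0.45 and 0.57. Kaede-green 24h reached at most 2.23 CPM and Kaede-green 72h at most 1.10 CPM. Ferroportin message was thus several-fold higher in Kaede-red 24h, whose 4 libraries all lay above the 4 of Kaede-red 72h, while Kaede-red 72h lay within the range of the Kaede-green libraries. Slc40a1 passed the filter on low counts through its Kaede-red 24h libraries, and it did not pass in the fit of the 72h groups alone. Its place among the 5 higher transcripts thus rests on a gene that the filter admitted for its Kaede-red 24h level.

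Summed over libraries, Kaede-red 24h held 203 counts of Slc40a1 against 8 in Kaede-green 24h, a ratio of 6.63 after scaling (exact 95% interval 3.3 to 15.6, counting error only). At 72h it held 77 against 5, a ratio of 1.8 (0.74 to 5.71). A count of 0 in a Kaede-green library allows a level of up to 0.73 to 1.23 CPM, so a difference between Kaede-red 72h and Kaede-green 72h was not detectable at this depth. In edgeR's quasi-likelihood test the log2 difference between the colours was 1.78 (SE 0.56, adjusted p = 0.0219) over both times, 2.76 (SE 0.71, adjusted p = 0.0132) at 24h and 0.81 (SE 0.88, adjusted p = 0.592) at 72h. Since the filter admitted Slc40a1 through the group where it is high, these tests are read with the fit of all genes without the filter, which gave 1.91 (adjusted p = 0.00204), 2.85 (adjusted p = 0.000476) and 0.96 (adjusted p = 0.525). Leaving out Kaede-red 24h replicate 1, the library with 116 counts, gave 1.5 (adjusted p = 0.0813) over both times and 2.19 (adjusted p = 0.110) at 24h. The call over both times was also lost without Kaede-green 72h replicate 2 (1.58, adjusted p = 0.0540) or 3 (1.53, adjusted p = 0.0566).

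Tfrc, the transferrin receptor, was the 1 transcript of the 8 that was lower in Kaede-red at 72h. Tfrc (chr16:32608920-32632794) stood at 6.13, 9.42, 9.43 and 25.4 CPM in Kaede-green 24h and at 8.08, 9.97, 17.1 and 20.6 CPM in Kaede-red 24h. At 72h it was 18.3, 25.04, 13.9 and 22.4 CPM in Kaede-green and 8.42, 7.46, 4.69 and 6.61 CPM in Kaede-red. The colours overlapped at 24h, and at 72h every Kaede-red library lay below every Kaede-green one, as in 9.52% of all genes. The log2 difference was -1.52 (SE 0.31, adjusted p = 0.000701) at 72h, a 2.86-fold lower level in Kaede-red, and 0.14 (SE 0.33, adjusted p = 0.857) at 24h.

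Over both times the Tfrc difference was -0.69 (SE 0.23, adjusted p = 0.0273), and it was 0.04 (adjusted p = 0.884) with counts outside Rn45s as the library size. This call was lost without Kaede-green 24h replicate 4 (-0.42, adjusted p = 0.149), Kaede-red 24h replicate 1 (-0.58, adjusted p = 0.0713) or 2 (-0.61, adjusted p = 0.0676), Kaede-green 72h replicate 2 (-0.65, adjusted p = 0.0545) or Kaede-red 72h replicate 3 (-0.62, adjusted p = 0.0554). The call at 72h held in each of the 16 fits that left out 1 library. The interaction of colour and time for Tfrc was -1.66 (SE 0.45, unadjusted p = 0.000818, adjusted p = 0.0659). None of the 8 passed the test for the interaction, beside 0.757% of all genes (0.425% higher and 0.332% lower), and 1 of 8 (Tfrc) had an unadjusted p under 0.05, as did 1476 of the 9642 genes. The other 7 interactions lay between -1.96 (Slc40a1, SE 1.28, adjusted p = 0.487) and 0.49 (Ftl1), with Blvrb at -0.80, Slc48a1 at -0.41, Slc11a1 at 0.05 and Hmox1 at 0.13. DESeq2 called 1 of the 8 for the interaction, Tfrc (-1.68, adjusted p = 0.0271), beside 321 of all 9642 genes.

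**Figure D2:**
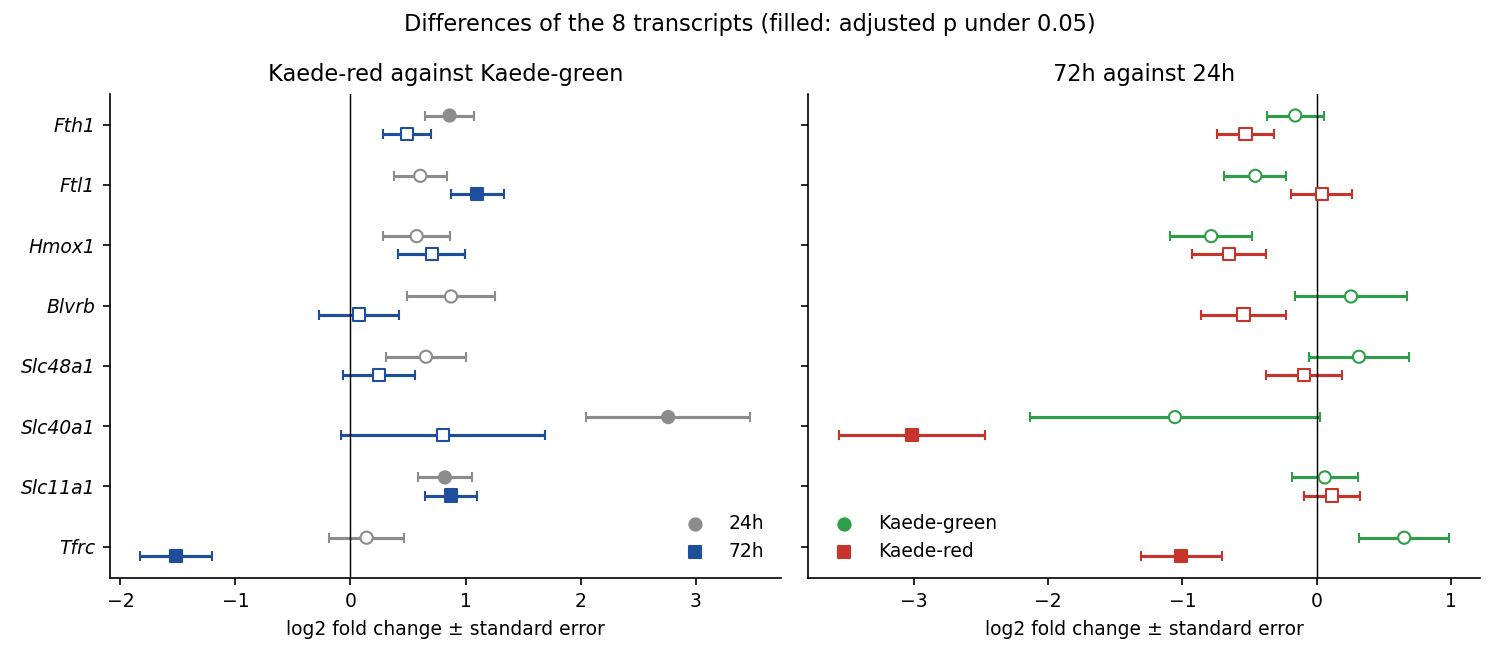
Log2 fold change ± standard error (horizontal axis) of the 8 transcripts from edgeR, for Kaede-red against Kaede-green at 24h and 72h (left) and for 72h against 24h in each colour (right), with filled symbols where the adjusted p is under 0.05. Slc11a1 was called at both times, Fth1 and Slc40a1 at 24h and Ftl1 and Tfrc at 72h, while Slc40a1 and Tfrc were lower at 72h than at 24h in Kaede-red. With counts outside Rn45s as the library size the Tfrc difference over both times was 0.04 instead of -0.69.

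Ferroportin sends iron out and the transferrin receptor brings it in. Their ratio within a library needs no scaling factor, but with a pseudocount of 0.5 it depends on depth where a count is near 0. The log2 ratio of Slc40a1 to Tfrc counts was -1.35, -3.97, -3.42 and -6.97 in Kaede-green 24h and 0.33, -1.69, -1.45 and -3.49 in Kaede-red 24h. The values at 72h were -3.85, -7.37, -6.84 and -5.11 in Kaede-green and -3.32, -3.48, -3.17 and -3.52 in Kaede-red. The Kaede-red 72h libraries were close together and all above the Kaede-green 72h libraries. At 24h the colours overlapped. Since Slc40a1 passed the filter through Kaede-red 24h, its ratio to Tfrc is not independent support for the Slc40a1 difference. The ratio was 2.39 higher in Kaede-red over both times (two-sided exact permutation p = 0.00816, adjusted over the 3 ratios 0.0245). It differed by 2.35 at 24h (exact p = 0.2) and by 2.42 at 72h (exact p = 0.0286). The 2 differences were close in size although Slc40a1 made up most of the first and Tfrc most of the second, and the change between the times was 0.07 (exact permutation p = 0.968). The adjusted p over both times rose above the threshold without Kaede-green 24h replicate 4 (1.88, exact permutation test, adjusted p = 0.0563), Kaede-red 24h replicate 1 (2.07, adjusted exact p = 0.0661) or Kaede-red 24h replicate 3 (2.37, adjusted exact p = 0.0539). Counts of Slc40a1 from 0 to 4 in Kaede-green libraries make the single values of this ratio imprecise. In Kaede-green 24h replicate 4 and Kaede-green 72h replicates 2 and 3 the count was 0, so the pseudocount and depth set the value. After TMM scaling every Kaede-green library was smaller than every Kaede-red one, so the pseudocount weighed more on Kaede-green.

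**Figure D3:**
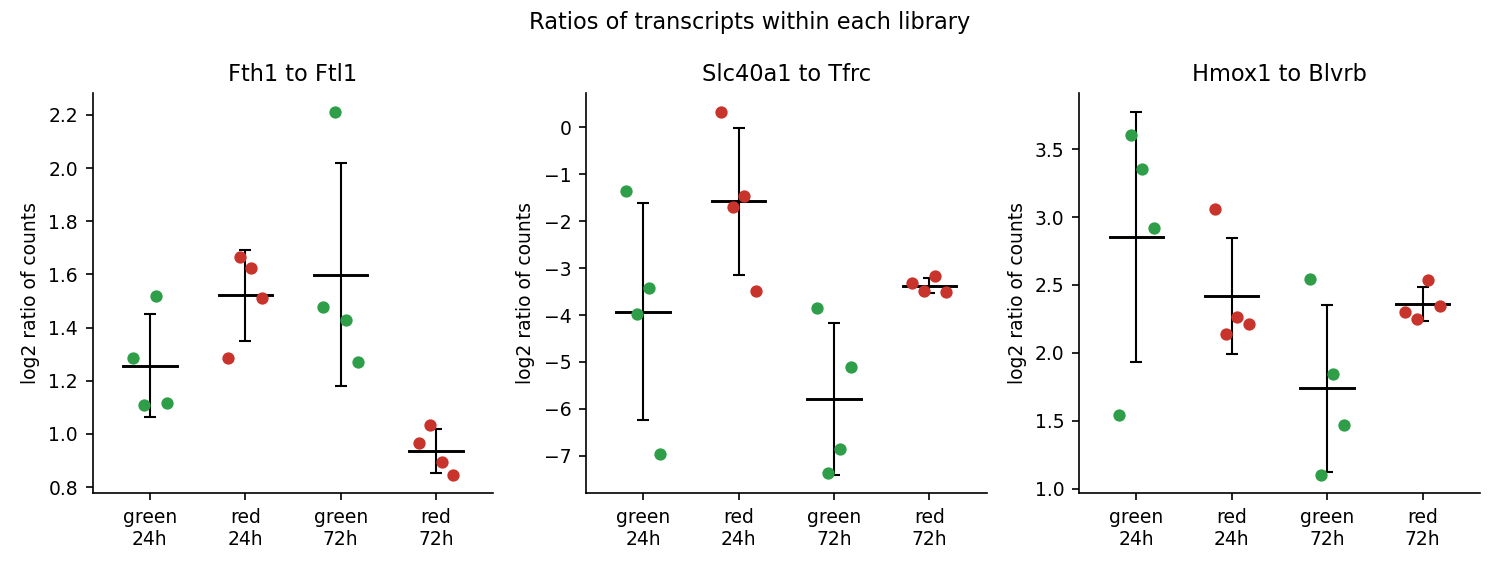
Log2 ratio of counts (vertical axis, pseudocount 0.5) of Fth1 to Ftl1, Slc40a1 to Tfrc and Hmox1 to Blvrb in each library, by group, with means and SD (n = 4). Fth1 to Ftl1 lies between 0.85 and 1.03 in Kaede-red 72h, below all other libraries, and Slc40a1 to Tfrc lies higher in Kaede-red 72h than in Kaede-green 72h.

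Between 24h and 72h, 2 of the 8 transcripts fell in Kaede-red cells and none rose, beside 8.68% of all genes called in either direction, 4.92% higher and 3.76% lower. Slc40a1 fell by 3.01 on the log2 scale (SE 0.55, adjusted p = 0.00121), and its summed level was 7.75 times higher at 24h (exact 95% counting interval 5.93 to 10.2). The filter admitted Slc40a1 through Kaede-red 24h, the high group of this comparison, so the filtered test alone is not read as support. In the 8 fits with other settings the difference was -3.32 to -2.70, and each kept the call. These included the fit without the filter and the one with the Rn45s share as a covariate. The call also held in each of the 16 fits that left out 1 library. Tfrc fell by 1.01 (SE 0.30, adjusted p = 0.0318), and its groups overlapped, since the highest Kaede-red 72h library (8.42 CPM) was above the lowest Kaede-red 24h library (8.08 CPM). In Kaede-red 24h it stood at 8.08 and 9.97 CPM in replicates 1 and 2, against 17.1 and 20.6 CPM in 3 and 4. The Tfrc call was lost without Kaede-red 24h replicate 3 (-0.89, adjusted p = 0.128) or 4 (-0.73, adjusted p = 0.211), and without Kaede-red 72h replicate 1 (-1.12, adjusted p = 0.0599), 2 (-1.05, adjusted p = 0.0620), 3 (-0.89, adjusted p = 0.0844) or 4 (-0.99, adjusted p = 0.0830). Slc40a1 and Fth1 lay wholly below their 24h levels, as did 8.76% of all genes, but Fth1 at -0.53 (SE 0.21, adjusted p = 0.117) missed the test. Hmox1 differed by -0.66 (SE 0.27, adjusted p = 0.139) and Ftl1 by 0.04 (SE 0.23, adjusted p = 0.948). Blvrb differed by -0.55 (SE 0.31, adjusted p = 0.308) and Slc48a1 by -0.10 (SE 0.28, adjusted p = 0.888).

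In Kaede-green cells none of the 8 passed the test between 24h and 72h, and 0.00% of all genes were called by edgeR. At an unadjusted p under 0.05 the test gave 835 of all genes and 1 of the 8, Hmox1, with a log2 difference of -0.79 (SE 0.31, unadjusted p = 0.0150, adjusted p = 0.458). DESeq2 called 13 genes, and edgeR without the filter called 37, with none of the 8 among either. The Tfrc difference was 0.65 (SE 0.34, adjusted p = 0.612), opposite in sign to its difference in Kaede-red cells. The others were Slc40a1 at -1.06, Ftl1 at -0.46, Fth1 at -0.16, Blvrb at 0.25 and Slc48a1 at 0.31, with adjusted p from 0.592 (Ftl1) to 0.904 (Blvrb).

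The rest of the pathway was taken from a list of 48 other genes of iron and haem metabolism, of which 45 were in the files and 35 passed the filter. Over both times 2 of these were higher in Kaede-red, 2 were lower, and their median log2 difference was 0.10. These 4 of 35 stand beside the 20.3% of all genes called, so the list as a whole did not stand out by its count. Lrp1, a scavenger receptor that takes up haem bound to hemopexin, was 0.75 higher (SE 0.14, adjusted p = 0.000111), at 74.6 ± 6.57 CPM in Kaede-red 24h and 118 ± 13.6 CPM in Kaede-red 72h against 52.9 ± 4.01 and 59.1 ± 14.5 CPM in Kaede-green (mean ± SD, n = 4). Ncoa4, which brings ferritin to the lysosome for breakdown, was 0.96 higher (SE 0.25, adjusted p = 0.00505), at 7.20 ± 2.08 and 8.79 ± 1.41 CPM in Kaede-red against 3.44 ± 1.79 and 4.55 ± 2.53 CPM in Kaede-green at 24h and 72h.

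Fbxl5, the iron-sensing subunit that directs iron regulatory protein 2 to degradation, was 0.77 lower in Kaede-red (log2 difference -0.77, SE 0.18, adjusted p = 0.00241), and 0.01 with counts outside Rn45s as the library size. In Kaede-red it stood at 16.5 ± 4.63 CPM (24h) and 10.5 ± 1.88 CPM (72h), against 23.5 ± 9.26 and 21.1 ± 5.92 CPM in Kaede-green. The iron regulatory proteins themselves, Aco1 (-0.00, SE 0.40, adjusted p = 0.998) and Ireb2 (0.03, SE 0.19, adjusted p = 0.938), did not pass the test. Hp, the haemoglobin-binding protein haptoglobin, was lower by 1.51 (log2 difference -1.51, SE 0.20, adjusted p = 7.39e-07). It stood at 22.3 ± 5.86 CPM in Kaede-green 24h, 4.14 ± 1.45 CPM in Kaede-red 24h, 17.9 ± 4.91 CPM in Kaede-green 72h and 12.02 ± 3.16 CPM in Kaede-red 72h. Hp was the 1 gene of the 35 with an interaction of colour and time past the test (1.89, SE 0.39, adjusted p = 0.0243), as its gap between the colours was wider at 24h.

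**Figure D4:**
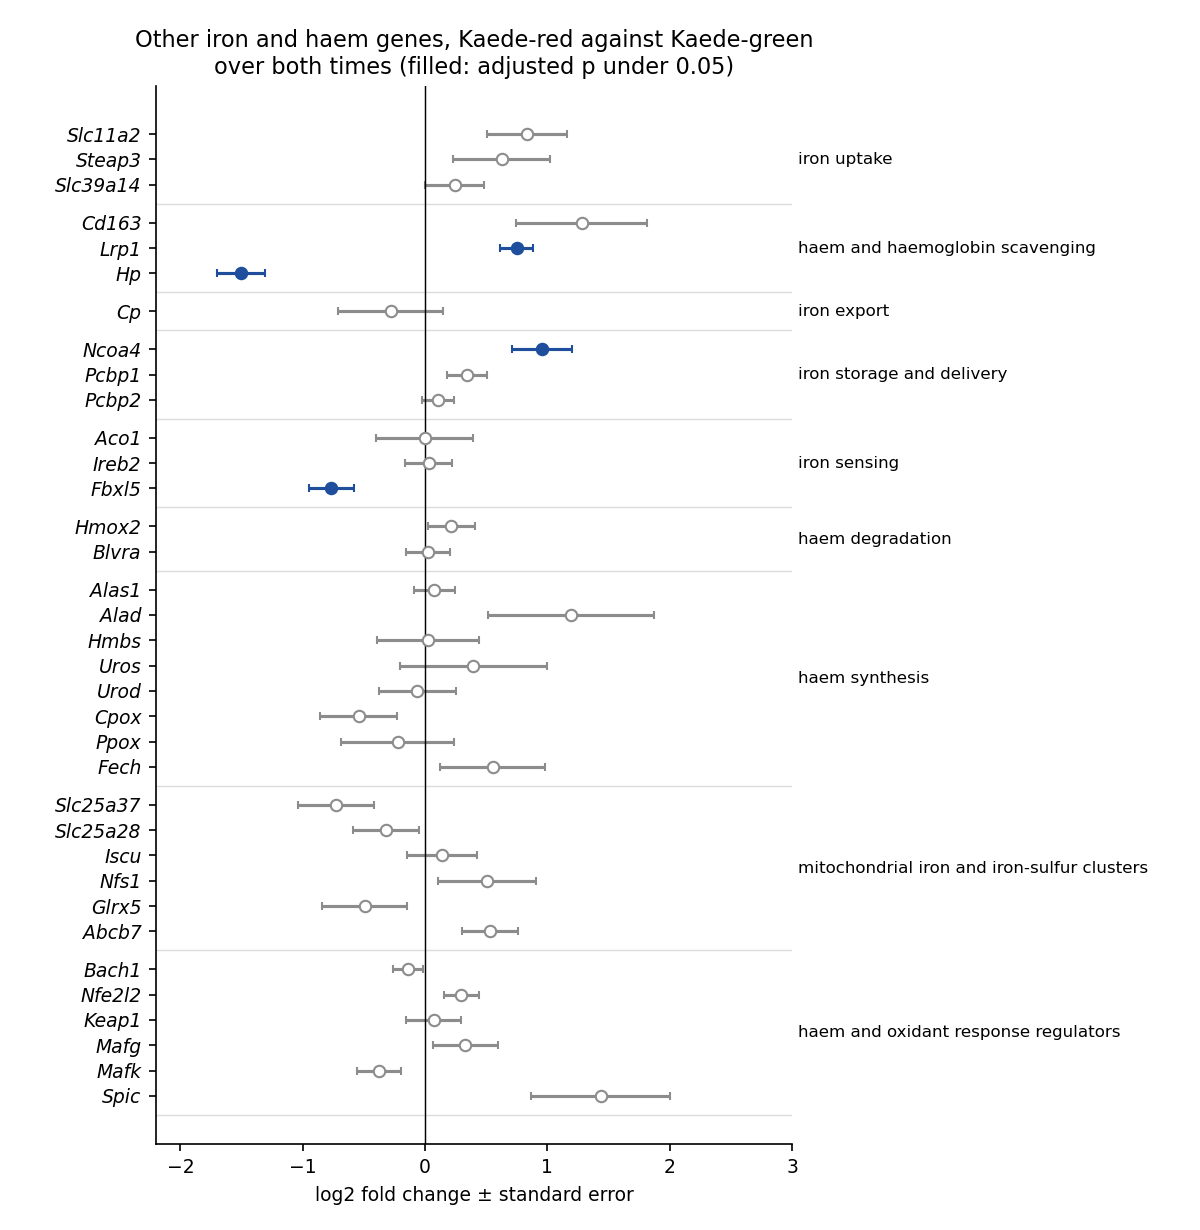
Log2 fold change ± standard error (horizontal axis) between Kaede-red and Kaede-green over both times for the 35 other iron and haem genes that passed the filter, in order of their role, with filled symbols where the adjusted p is under 0.05. Lrp1 and Ncoa4 were higher and Hp and Fbxl5 lower, and the Fbxl5 difference was 0.01 with counts outside Rn45s as the library size.

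Some pathway genes passed the test in 1 of the other comparisons, and these, with Cd163, were named after their values were seen. Spic, a transcription factor of iron-recycling macrophages, was higher in Kaede-red at 24h by 2.78 (SE 0.88, adjusted p = 0.0481). It stood at only 2.09 ± 0.60 CPM in Kaede-red 24h against 0.42 ± 0.84 CPM (0 to 1.67) in Kaede-green 24h. As with Slc40a1, the filter on low counts admitted Spic through its Kaede-red libraries, so this call is not read as support. Like Slc40a1, Spic was low in Kaede-red 72h, at 0.98 ± 0.45 CPM. Its difference of -1.20 from 24h in Kaede-red (SE 0.55, adjusted p = 0.183) missed the test. Cd163, the haemoglobin scavenger receptor, was also scarce, at 1.54 ± 0.39 CPM in Kaede-red 24h and 1.26 ± 0.87 CPM in Kaede-red 72h, and its difference of 1.28 over both times (SE 0.54, adjusted p = 0.0903) missed the test. Nfe2l2, which encodes Nrf2, a regulator of the oxidant response, was higher in Kaede-red at 72h by 0.64 (SE 0.20, adjusted p = 0.0238). Between the times in Kaede-red cells, 4 of the 35 pathway genes were higher at 72h and 1 was lower, beside 4.92% and 3.76% of all genes. Hp was higher by 1.56 (SE 0.27, adjusted p = 0.00113) and Lrp1 by 0.67 (SE 0.19, adjusted p = 0.0237). Alas1, the entry enzyme of haem synthesis, was higher at 72h by 0.79 (SE 0.22, adjusted p = 0.0237). Bach1, a haem-responsive repressor of Hmox1, was higher by 0.55 (SE 0.17, adjusted p = 0.0437), and Blvra, biliverdin reductase A, was lower (-0.73, SE 0.23, adjusted p = 0.0417).

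Hmox1, Fth1 and Ftl1 are also known targets of Nrf2. Of 8 other Nrf2 target genes outside iron and haem handling, 7 passed the filter, 0 were higher and 1 was lower in Kaede-red over both times, with a median log2 difference of 0.00, beside 10.05% and 10.3% of all genes. The 1 that was lower was Gsr, glutathione reductase, at -0.85 (SE 0.13, adjusted p = 1.37e-05). In the 8 fits with other scaling, filter, test or covariate, the Gsr difference ranged from -0.88 to -0.07, and 2 of them lost the call. The other 6 did not pass the test.

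Red blood cell precursors carry much iron and haem machinery of their own, and the markers of that lineage were scarce next to ferritin but, summed, reached the level of single transcripts such as Slc40a1, Blvrb and Slc48a1. The summed level of 8 erythroid markers, including the globins, was 3.90 to 8.997 CPM in Kaede-green 24h, 1.93 to 11.4 CPM in Kaede-red 24h, 1.22 to 2.34 CPM in Kaede-green 72h and 0.0632 to 11.3 CPM in Kaede-red 72h. Of these, 2 passed the filter and neither passed the test between the colours, and Klf1 was at 0 in both 24h groups and in Kaede-red 72h. Fibroblast markers summed to 40.3 to 52.8 CPM and 43.1 to 48.6 CPM in Kaede-green at 24h and 72h, and to 18.9 to 35.9 CPM and 11.2 to 18.3 CPM in Kaede-red. Of the 5, 3 passed the filter and all 3 were lower in Kaede-red. Neutrophil markers summed to 15.8 to 19.1 CPM in Kaede-red 72h and to 5.74 to 11.4 CPM in the other 3 groups. Of the 8, only 1 (Csf3r) passed the filter, and it was higher in Kaede-red over both times, with Ngp at 0 throughout. Ptprc and Itgam, which encode the sorted proteins CD45 and CD11b, summed to 284 to 313 CPM in Kaede-red 72h and to 133 to 204 CPM in the other 3 groups. Kaede-red 72h, where Ftl1 and Tfrc separated from Kaede-green, thus also stood apart in both of these lists. Endothelial markers summed to 9.77 to 19.0 CPM in Kaede-green and 17.8 to 36.7 CPM in Kaede-red, with 2 of 3 higher and 1 lower. Over both times, 10.05% of all genes tested were higher and 10.3% lower in Kaede-red. Of 6 dendritic cell markers 2 passed the filter, and 1 (Ccr7, at 0 in Kaede-green 24h) was higher. Of 5 T and NK cell markers 1 (Cd4) passed it and was higher. No B cell or tumour epithelial marker passed it. Dendritic cell, T and NK cell, B cell and tumour epithelial markers summed to at most 5.10, 4.09, 2.45 and 3.68 CPM. The part of these cells in the differences of the 8 transcripts was not tested.

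The genes most like each transcript in level across the 16 libraries were found among 1387 well-measured genes as those with the smallest root mean square (RMS) difference of centred log2 CPM. Slc11a1 was followed most closely by Anxa4, Hexa and Pla2g7 (RMS difference 0.213 to 0.226, against a median of 0.607 over the candidates). Fth1 was followed by Slc3a2, Snx5 and Ctsh (0.203 to 0.231, median 0.587) and Ftl1 by Aldoa, Gm12070 and B2m (0.223 to 0.246, median 0.653). Hmox1 was less closely matched, by Aldoa, Atp6v0c and its copy Atp6v0c-ps2 (0.515 to 0.518, median 0.808). The nearest to Tfrc were Col6a3, A530032D15Rik and Top2a (0.45 to 0.467, median 0.892). The nearest to Slc40a1 were Arg1, Cd84 and Ctsd, at 1.28 to 1.31 against a median of 1.73, which is no close match. Blvrb was nearest to P2rx4 (0.505) and Slc48a1 to Kpnb1 (0.38), both with wide scatter.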

How the data were processed

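The deposited files hold raw read counts per gene, and the authors made these counts by trimming with Trim Galore, alignment to mm10 with HISAT2 and featureCounts, with versions and strand setting not given in the sources used here. Libraries came from 5 ng of total RNA with a stranded kit. The series table and the single-library files held equal counts. The members and gene lists were chosen with earlier results of these data known. By rule all 8 members are named, and other pathway genes where they passed the test over both times or for the interaction, and further genes are said to be named after their values were seen. Counts of 24421 genes in 16 libraries were filtered with filterByExpr (9642 kept) and TMM-scaled, and edgeR 4.0.16 (R 4.3.3) fitted 1 mean per group, with glmQLFTest, Benjamini-Hochberg adjustment over all genes and a threshold of 0.05. The study used DESeq2, here 1.42.0 and an alternative. Ratios used a pseudocount of 0.5 and exact permutation tests that relabelled colours within a time point. Standard errors and p-values measure the spread between these libraries. Replicate numbers were not taken to pair libraries, as the deviations of same-numbered libraries correlated at -0.0183 to 0.153. None of the 24 pairs of libraries within a group agreed within counting noise. In Kaede-red 24h, chi-square per gene, near 1 for counting noise alone, was 3.21 between replicates 1 and 2 and 5.66 between 3 and 4. Across these pairs it was 33.5 to 78.4. Rn45s took 66.2 and 68.2% of counts in replicates 1 and 2, and 83.1 and 84.9% in 3 and 4. Gene positions and transcript lengths are from GENCODE M21. Scripts were tested on simulated data. Alternatives were other scaling, filters, tests and covariates, and leaving out each library.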

Additional observations from a re-analysis of the deposited data

Results flagged for a closer look

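Among 44 groups of 4 values (8 transcripts and 3 ratios in 4 groups), 1 held a library far from the other 3, and chance alone gives about 1 such group in 20. It was the log2 ratio of Hmox1 to Blvrb in Kaede-red 24h, where replicate 1 stood at 3.06 against 2.14 to 2.26 in the others. The gap took 0.863 of the range, above the limit of Dixon's test for 4 values.

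The difference between the colours in the log2 ratio of Fth1 to Ftl1 changed by -0.927 from 24h to 72h (exact permutation test, adjusted p = 0.00612). Omitting any 1 library gave changes of -1.04 to -0.72, with adjusted exact p from 0.00367 to 0.0147.

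The difference between the colours in Hp changed by 1.89 on the log2 scale from 24h to 72h (edgeR's quasi-likelihood test, interaction, adjusted p = 0.0243). In 8 of the 16 fits that left out 1 library the adjusted p was above 0.05, at up to 0.0783, with values from 1.65 to 2.14.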

How the results depend on the processing

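With the Rn45s share as a covariate, 0 members were called over both times, 0 at 24h, 0 at 72h and 1 (Slc40a1) between the times in Kaede-red. These stand beside 156, 206, 101 and 110 of all 9642 genes. Of the other pathway genes, 1 (Hp) was then called over both times. With counts outside Rn45s as the library size, 8 members were called at 24h, 6 at 72h and 1 between the times in Kaede-red, and 22 of 30 other pathway genes over both times, beside 4441, 3590, 600 and 5661 of all 8261 genes. Without the filter, 5 were called at 72h, beside 2014 of all 21040 genes. For the interaction, DESeq2, no filter and a minimum of 10 counts in every library each gave 1 (Tfrc). Calls over all genes were then 321 of 9642, 216 of 21040 and 156 of 3084, in that order, against 73 of 9642 in the main fit. That minimum left 5 members, without Blvrb, Slc48a1 and Slc40a1.

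Leaving out each library in turn, called members ranged from 3 to 7 over both times, 1 to 3 at 24h, 3 to 4 at 72h, 0 to 0 between the times in Kaede-green, 1 to 3 in Kaede-red and 0 to 1 for the interaction, and other pathway genes from 4 to 7. In the same fits, which tested 9534 to 10172 genes, calls over all genes also moved. They ranged from 1582 to 2082 over both times, 503 to 765 at 24h and 1146 to 1910 at 72h. Between the times they were 0 to 2 in Kaede-green and 280 to 1108 in Kaede-red, and for the interaction 2 to 155. The log2 ratio of Slc40a1 to Tfrc ranged from 1.88 to 2.82.

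Some small differences that had not passed the test changed sign. Leaving out 1 library, these were Tfrc at 24h (-0.13 to 0.69), Blvrb (-0.14 to 0.22) and Slc48a1 (-0.0332 to 0.46) at 72h, Blvrb (-0.0676 to 0.95) and Slc11a1 (-0.10 to 0.23) between the times in Kaede-green, Slc48a1 (-0.25 to 0.0629) and Ftl1 (-0.0512 to 0.22) in Kaede-red, the interactions of Hmox1 (-0.0611 to 0.41) and Slc11a1 (-0.14 to 0.21), and the Hmox1 to Blvrb ratio (-0.13 to 0.22). With counts outside Rn45s these were Fth1 between the times in Kaede-green (0.0483), Ftl1 in Kaede-red (-0.0478) and the interactions of Hmox1 (-0.20) and Slc11a1 (-0.20), together with 2 called differences over both times, Tfrc (0.0438) and Fbxl5 (0.0136). With the Rn45s share they were Slc11a1 in Kaede-green (-0.0426) and Kaede-red (-0.0853) and its interaction (-0.0427), and Ftl1 in Kaede-red (-0.18). Ftl1 in Kaede-red was -0.0129 with DESeq2, -0.0129 with RLE factors and -0.0219 with at least 10 counts, where the Slc11a1 interaction was -0.0499. The cause was not tested.

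The fit with a replicate block kept the call and direction of all 48 member results, for example 0.64 for Hmox1 over both times, and same-numbered libraries correlated best with each other in 2 of 8 cases. Leaving out Rn45s also kept all 48. Depth limits Slc40a1, Blvrb and Slc48a1 in Kaede-green libraries.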
